A study of Mus musculus with 22 samples.

Results

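Spermatids of trisomic males were compared with spermatids of euploid males on 3 arrays each, which are 6 of the 22 arrays of the series. A gene was included where its mean over these 6 arrays was at least 4 on the log2 intensity scale, which kept 8283 of the 15780 genes named on the array. Just inside this limit were Exoc8 at 4.001 and Ralgapa1 at 4.002, and just outside it Tmem14c at 3.999 and Cad at 3.999. The trisomic males had the genotype Ts43H and the euploid males, their siblings, the genotype t121/D17. Both were 2 months old, and in both the cells were obtained by fluorescence-activated sorting of a testis cell suspension, after which 20 to 30 ng of total RNA was amplified and labelled in a protocol of 2 cycles. The other 16 arrays held mid-late-pachytene spermatocytes (2 trisomic, 2 euploid), pre-mid-pachytene spermatocytes (3 and 3) and liver (3 and 3) of the same genotypes. Ts43H mice are known to carry a small additional chromosome with the centromeric end of chromosome 17, which came from a translocation with chromosome 16. The labels give neither its breakpoint nor the meaning of t121/D17. They name no animal for an array, so the p values measure the spread between these arrays, which may be technical. The number of arrays limits the precision of every value.

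Spermatids are the haploid cells that follow the meiotic divisions. Over their development they build an acrosome and a flagellum and replace the histones of the nucleus by transition proteins and then protamines, and many of the messages needed late are made early and stored. Spermatids of one clone stay joined by cytoplasmic bridges, through which they share RNA. In mice with an additional chromosome segment, only some of the haploid cells inherit the segment, and pairing faults in meiosis can cost many cells before this stage.

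Markers of spermatids were high in the sorted cells. The 14 round spermatid markers on the array had median levels of 12.46 to 12.94 on the trisomic arrays and 12.55 to 12.97 on the euploid arrays. In trisomic and euploid pre-mid-pachytene spermatocytes the same markers averaged 7.49 ± 0.36 and 8.64 ± 0.50 (SD, n = 3 each), and in liver 2.48 ± 0.07 and 2.40 ± 0.09 (SD, n = 3 each). Elongating spermatid markers did not set spermatids apart from all spermatocytes. They averaged 14.12 ± 0.29 in trisomic and 14.40 ± 0.22 in euploid spermatids (SD, n = 3 each). In trisomic and euploid cells labelled pre-mid-pachytene they averaged 13.95 ± 0.42 and 13.75 ± 0.19 (SD, n = 3 each). In mid-late-pachytene spermatocytes they averaged 9.88 ± 0.07 and 10.36 ± 1.05 (SD, n = 2 each). The pre-mid-pachytene cells held less of the pachytene markers than the spermatids did, at 12.02 ± 0.46 and 11.94 ± 0.48. They held more of the early meiotic prophase markers, at 11.42 ± 0.11 and 10.84 ± 0.40, against 9.22 ± 0.16 and 9.51 ± 0.20 in spermatids. Pachytene spermatocyte markers were not low in the spermatids, at 13.94 ± 0.10 in trisomic and 13.88 ± 0.17 in euploid spermatids (SD, n = 3 each). Of the 12 spermatogonia markers 8 lay in the background range, below 3, on all 6 arrays, as did 5 of 13 Sertoli cell markers. Another 6 Sertoli cell markers were expressed enough to be tested, and none of them passed the threshold. They included Clu at means of 9.22 in trisomic and 9.32 in euploid spermatids, Aard at 8.55 and 9.05, and Inha at 7.46 and 7.50. The summed level of the 10 macrophage markers, on the log2 scale, lay at 11.16 to 11.49 on the trisomic and 9.44 to 11.50 on the euploid arrays, with 5 markers in the background range on all 6 arrays. Their median did not overlap, at 2.88 to 3.0 on the trisomic and 2.29 to 2.39 on the euploid arrays. One of them, Cd14, a receptor for bacterial lipopolysaccharide, had 4.50, 5.01 and 5.82 on the trisomic arrays and 1.83, 1.83 and 1.86 on the euploid arrays, and was not tested because its mean was under 4. Cd14 was the only macrophage marker below 3 on the euploid and above 3 on the trisomic arrays, and the shift of the median came with it. Adgre1 went the other way without overlap, at means of 6.77 in trisomic and 7.19 in euploid spermatids. Fcgr3, the highest marker on every array and the main part of the sum, had 11.29, 11.39 and 11.03 against 10.96, 9.02 and 11.39. Neither passed the threshold. The macrophage markers Cd68, Csf1r, Lyz2, C1qa and Ptprc were in the background range on all 6 arrays. Sums of the 10 peritubular and stromal markers did not overlap, at 7.56 to 7.99 on the trisomic and 6.84 to 7.11 on the euploid arrays, with 4 markers in the background range throughout. Those of the 7 endothelial markers did not overlap in the other direction, at 8.11 to 8.51 on the trisomic and 8.85 to 9.40 on the euploid arrays. The peritubular list included Acta2, a smooth muscle actin, at 6.98, 6.97 and 6.95 on the trisomic and 6.25, 5.64 and 6.17 on the euploid arrays (0.95, adjusted p = 0.742), and the endothelial list Vwf and Egfl7 at changes of -0.68 and -0.96, neither past the threshold. Col3a1, of the peritubular list, had means of 4.81 in trisomic and 2.99 in euploid spermatids. Of the 7 Leydig cell markers, whose sums overlapped, Cyp17a1 had means of 2.37 and 5.08, and Hsd3b1 went the other way at 3.17 and 2.39. Col3a1, Cyp17a1 and Hsd3b1 were not tested because their means over the 6 arrays were under 4. The part of these other cells in the results was not tested, and in bulk samples fewer cells of a type and less RNA per cell cannot be told apart. Across all genes the 6 arrays correlated with r between 0.974 and 0.986, with no separation of the genotypes.

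Few single genes differed between trisomic and euploid spermatids. With limma, 68 of 8283 genes (0.821%) passed an adjusted p of 0.05, of which 24 were higher (0.29%) and 44 lower (0.531%) in trisomic spermatids. The median change over all genes tested was 0.01 on the log2 scale, and 720 genes (8.69%) had an unadjusted p under 0.05, with 4.18% higher and 4.52% lower. In 617 genes (7.45%) every trisomic array lay above every euploid array, and in 461 (5.57%) every one lay below. These calls use a spread shared by all 22 arrays. Fitted on the 6 spermatid arrays alone, Ttc22 was the only gene past the threshold (0.0121%), while 640 genes (7.73%) had an unadjusted p under 0.05.

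**Figure D1:**
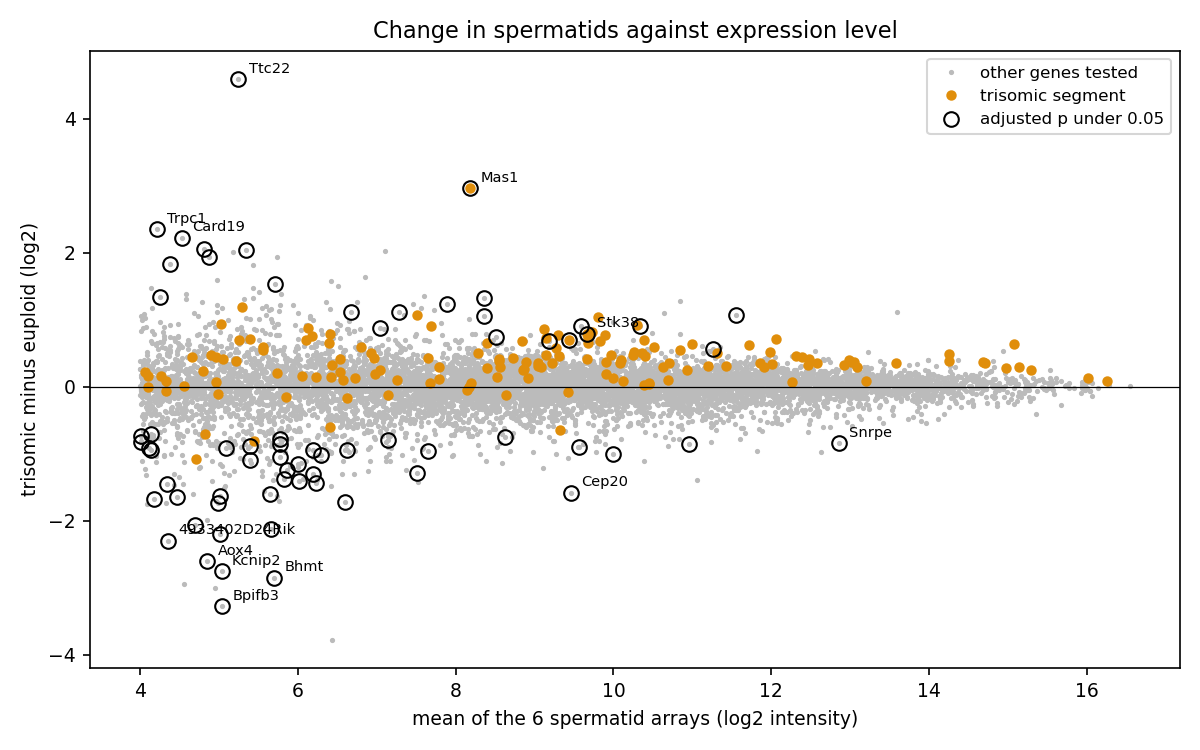
Change in spermatids (trisomic minus euploid, log2, vertical axis) against the mean of the 6 spermatid arrays (log2 intensity, horizontal axis) for the 8283 genes tested. Grey dots are single genes, orange dots the 148 genes of the trisomic segment, and black rings the 68 genes past an adjusted p of 0.05. Ttc22 and Mas1 lie highest, most ringed genes lie at low levels, and the orange dots lie mostly above 0.

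Promoters are shown for genes with clear changes in each direction. They belong to the pair of genes with the lowest adjusted p in each direction that the RefSeq promoter table holds, and each runs from 250 bases before to 50 bases after the start in build GRCm38.p6. Many genes of spermatids are switched on by the factor CREM through the cyclic AMP response element, so the letters TGACG, its half-site, were searched on both strands and are in capitals where they occur.
Ttc22, higher, chr4:106622199-106622498, plus strand: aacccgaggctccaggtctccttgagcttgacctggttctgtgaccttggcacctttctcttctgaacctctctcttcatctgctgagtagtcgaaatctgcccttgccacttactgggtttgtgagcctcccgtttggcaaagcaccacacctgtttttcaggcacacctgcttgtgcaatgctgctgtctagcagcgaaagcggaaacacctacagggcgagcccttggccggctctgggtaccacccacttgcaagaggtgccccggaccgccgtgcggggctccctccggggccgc
Mas1, higher, chr17:12868094-12868393, minus strand: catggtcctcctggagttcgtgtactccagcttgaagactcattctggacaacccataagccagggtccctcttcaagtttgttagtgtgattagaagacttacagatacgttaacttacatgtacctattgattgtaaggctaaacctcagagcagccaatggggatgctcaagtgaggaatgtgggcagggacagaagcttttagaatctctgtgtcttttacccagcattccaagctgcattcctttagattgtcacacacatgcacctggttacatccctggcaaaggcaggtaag
Aox4, lower, chr1:58210147-58210446, plus strand: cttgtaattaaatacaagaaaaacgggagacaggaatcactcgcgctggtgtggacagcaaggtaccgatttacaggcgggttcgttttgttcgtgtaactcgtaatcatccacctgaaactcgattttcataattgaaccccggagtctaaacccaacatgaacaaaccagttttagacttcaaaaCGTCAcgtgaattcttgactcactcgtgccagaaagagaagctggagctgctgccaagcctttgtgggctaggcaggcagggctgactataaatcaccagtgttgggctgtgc
Kcnip2, lower, chr19:45816014-45816313, minus strand: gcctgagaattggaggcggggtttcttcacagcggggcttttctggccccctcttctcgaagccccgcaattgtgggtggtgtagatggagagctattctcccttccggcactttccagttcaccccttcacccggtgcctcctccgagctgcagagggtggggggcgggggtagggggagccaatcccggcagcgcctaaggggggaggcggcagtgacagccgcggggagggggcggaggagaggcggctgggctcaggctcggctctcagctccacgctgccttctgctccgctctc
Among these 4 only the Aox4 window held the half-site, in the reverse orientation and 63 bases before the start. Of the genes called higher, 6 of 20 with a promoter in the table (30%) held it, and of those called lower 6 of 36 (16.67%), against 2280 of the 6835 tested genes with a promoter (33.36%). In the trisomic segment 44 of 125 promoters (35.2%) held it. A match describes letters in this window only.

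The largest increase was that of Ttc22, which encodes a protein of tetratricopeptide repeats. Its levels were 7.45, 8.01 and 7.17 on the trisomic arrays, against 2.76, 3.24 and 2.84 on the euploid arrays, so it was well measured in trisomic spermatids and mostly in the background range in euploid spermatids. The fitted change was 4.59 (log2, SE 0.24, limma adjusted p = 2.75e-09), it passed on whichever 5 arrays were kept, and its size depends on the floor of the euploid values. Trpc1, which encodes a cation channel, had 5.91, 4.73 and 5.53 in trisomic against 3.24, 2.93 and 2.95 in euploid spermatids. Its change was 2.35 (SE 0.23, adjusted p = 1.19e-05), again from euploid values at the edge of the background range. Trpc1 passed the filter on low values through the trisomic arrays, and without trisomic replicate 1 or 3 its mean was under 4 and it was not tested. The X-linked 4930519F16Rik had 6.57, 5.87 and 6.63 against 4.03, 4.11 and 4.83, a change of 2.04 (SE 0.20, adjusted p = 1.19e-05). Trpc1 and 4930519F16Rik lay below 3 in all 6 groups of the other cell types.

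Further increases outside the trisomic segment were smaller. Card19, whose protein has a caspase recruitment domain, had 5.31, 5.75 and 5.88 in trisomic and 3.91, 2.46 and 3.89 in euploid spermatids (2.22, SE 0.40, adjusted p = 0.0111). Mob2, whose protein binds NDR kinases, was at 5.86, 5.85 and 5.80 on the trisomic arrays and at 3.83, 2.68 and 4.83 on the euploid ones (2.05, SE 0.34, adjusted p = 0.00615). In both genes the trisomic arrays lay close together and the euploid arrays far apart, with 1 euploid array in the background range, and both passed the filter on low values through the trisomic arrays, so the size of their changes depends on the floor. The kinase gene Nek3 rose by 1.93 (adjusted p = 0.015), and P4htm, a prolyl hydroxylase of the endoplasmic reticulum, by 1.32 (adjusted p = 0.0159). Il33, which encodes an alarm cytokine kept in the nucleus, had 8.63, 8.61 and 8.29 against 6.91, 7.97 and 6.94 (1.23, adjusted p = 0.0223). The X-linked 1600025M17Rik rose by 1.12 (adjusted p = 0.00615). Nid2, a basement membrane protein gene (1.53), the RNA-binding protein gene Fam120a (1.33) and the zinc finger gene Zfp82 (1.12) passed by less, with adjusted p values of 0.0443, 0.0357 and 0.0497.

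Several of these calls were lost with 1 array left out, and some changes moved, that of Nid2 from 1.53 to 1.07 without euploid replicate 3. Nek3 no longer passed without trisomic replicate 1 (1.75, adjusted p = 0.065), and P4htm without trisomic replicate 2 (1.16, adjusted p = 0.0579) or euploid replicate 1 (1.0, adjusted p = 0.0586). Il33 was lost without trisomic replicate 1 or 2 or euploid replicate 1 or 3, with changes of 1.17, 1.18, 1.05 and 1.07 and adjusted p values of 0.0801, 0.0637, 0.0869 and 0.0891. Fam120a was lost without trisomic replicate 1 or 3 or euploid replicate 1 or 3, with changes of 1.30, 1.26, 1.10 and 1.41 and adjusted p values of 0.0984, 0.0981, 0.131 and 0.0551. Nid2 kept its call only without euploid replicate 2, with changes of 1.07 to 1.67 and adjusted p values of 0.0523 to 0.143 in the other 5 fits. Zfp82 did not pass with any 1 of the 6 arrays left out (changes of 0.88 to 1.25, adjusted p between 0.0588 and 0.16). All changes stayed above 0 in these fits.

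**Figure D2:**
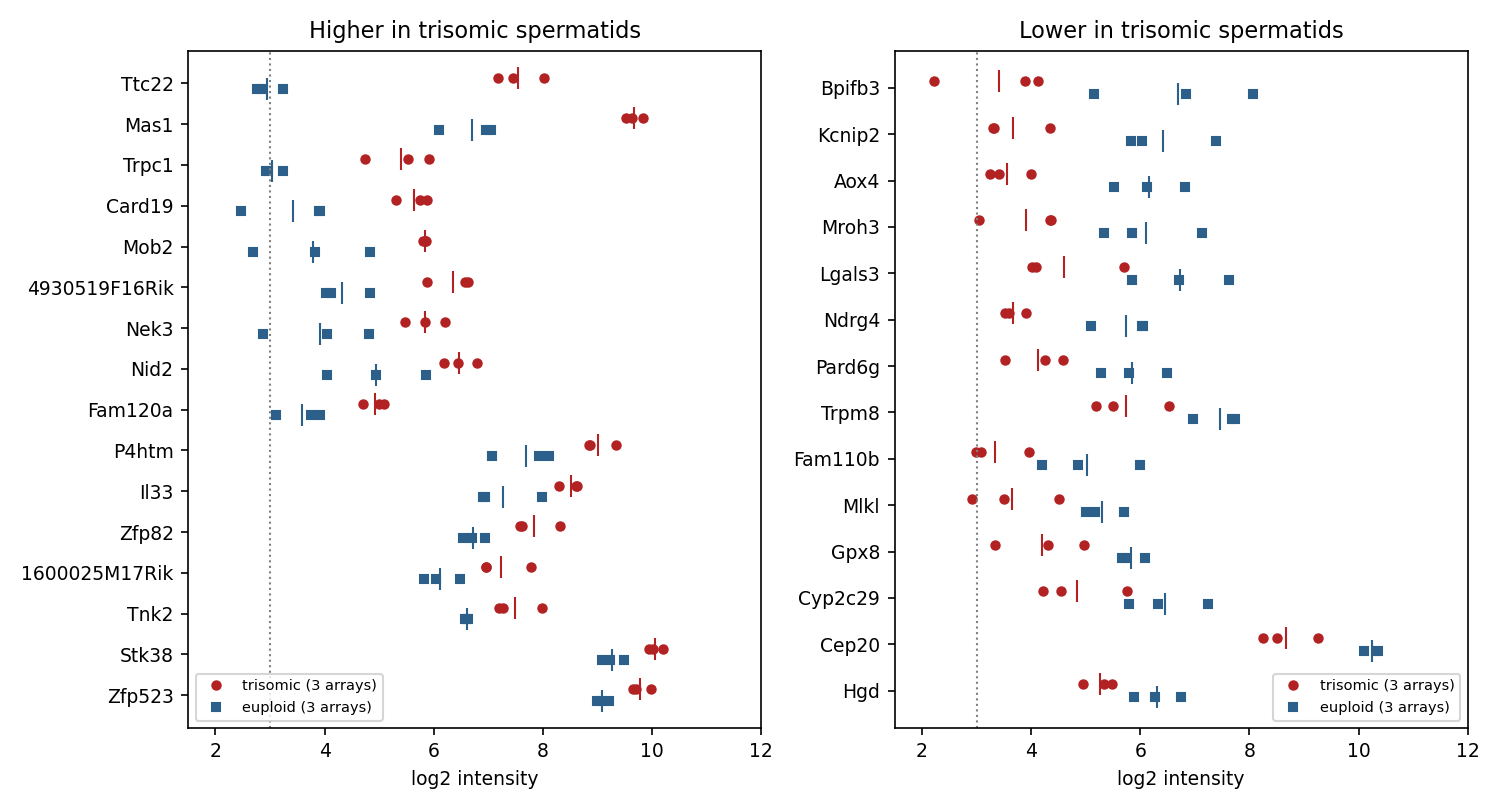
Levels (log2 intensity) of the 30 named genes past an adjusted p of 0.05, with 1 row per gene. Red circles are the 3 trisomic spermatid arrays, blue squares the 3 euploid arrays, short vertical bars the group means, and the dotted line marks the background range below 3. Only called genes whose groups do not overlap were drawn, so the gap between the groups comes from this rule. The euploid values of Ttc22 and Trpc1 lie around the dotted line.

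The 12 named genes that fell outside the segment, those with the largest changes among called genes without overlap, reached at most 6.53 on a trisomic array. Bpifb3, of a family of lipid-binding secreted proteins, had 4.12, 3.88 and 2.23 in trisomic and 6.84, 5.16 and 8.06 in euploid spermatids (-3.28, SE 0.53, adjusted p = 0.00542). Kcnip2, an accessory subunit of potassium channels, had 3.31, 3.32 and 4.35 against 5.82, 6.03 and 7.39 (-2.76, SE 0.30, adjusted p = 5.08e-05). Aox4, an aldehyde oxidase, had 4.0, 3.25 and 3.42 against 6.13, 5.53 and 6.83 (-2.61, SE 0.27, adjusted p = 2.72e-05). All 3 stood clearly above the background range in euploid spermatids and near it in trisomic spermatids. Their trisomic means were under 4, so they passed the filter through the euploid arrays and the size of their changes depends on the floor. Mroh3 fell by 2.19 (adjusted p = 0.00396), Ndrg4 by 2.06 (adjusted p = 0.00262) and Pard6g, a cell polarity gene, by 1.73 (adjusted p = 0.00615). The cold-sensing channel gene Trpm8 had 5.18, 5.51 and 6.53 in trisomic and 7.68, 6.97 and 7.74 in euploid spermatids, a fall by 1.72 (adjusted p = 0.0035). Gpx8, a peroxidase of the endoplasmic reticulum, fell by 1.63 (adjusted p = 0.00745). These 8 genes passed whichever spermatid array was left out. So did Large2, a glycosyltransferase gene chosen after its values were seen, with 5.59, 5.49 and 5.48 in trisomic and 7.21, 6.86 and 6.79 in euploid spermatids and the lowest adjusted p of the genes called lower (-1.43, SE 0.12, adjusted p = 2.32e-06).

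Other decreases passed or did not pass by which arrays were used, and kept their direction. Lgals3, which encodes galectin-3 and is also abundant in macrophages, had 4.02, 4.08 and 5.71 in trisomic and 7.63, 5.85 and 6.71 in euploid spermatids (-2.13, SE 0.43, adjusted p = 0.0223). It did not pass without trisomic replicate 1 or 2 or euploid replicate 1 or 3, with changes of -1.84, -1.87, -1.68 and -2.14 and adjusted p values of 0.0984, 0.0835, 0.0852 and 0.0551. Mlkl, the gene of the executor of necroptosis, fell by 1.65 (adjusted p = 0.0223), and was lost without trisomic replicate 1 or 2 or euploid replicate 3 (changes of -1.58, -1.29 and -1.44, adjusted p = 0.08, 0.0894 and 0.0876). Cyp2c29, a cytochrome gene best known from liver, fell by 1.61 (adjusted p = 0.0223) and was lost without the same arrays (changes of -1.46, -1.30 and -1.22, adjusted p = 0.0984, 0.093 and 0.0903). The centrosome gene Fam110b fell by 1.68 (adjusted p = 0.0222), and was lost without trisomic replicate 1 or 2 (changes of -1.50 and -1.55, adjusted p = 0.0948 and 0.0691), and not tested without euploid replicate 2, when its mean was under 4. It passed the filter on low values through the euploid arrays, so the size of its change depends on the floor.

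Of the 68 called genes, 17 had a mean of at least 8, of which 11 were higher and 6 lower in trisomic spermatids. The 6 given next were chosen after their values were seen, and in each the groups did not overlap. Ctnna1, the alpha-catenin of cell junctions, had 10, 10.37 and 9.73 in trisomic and 9.02, 8.93 and 9.45 in euploid spermatids (0.90, adjusted p = 0.0148), and passed whichever array was left out. Mapkap1, a subunit of the TORC2 kinase complex, had 10.44, 10.96 and 10.96 against 9.93, 10.31 and 9.43 (0.90, adjusted p = 0.0492). Prpsap1, whose protein associates with the synthetase of phosphoribosyl pyrophosphate, had 11.53, 11.54 and 11.55 against 10.88, 11.10 and 10.95 (0.57, adjusted p = 0.046). These 3 genes rose. Snrpe, a core protein gene of the spliceosome, had 12.45, 12.32 and 12.53 against 13.19, 13.28 and 13.34 (-0.84, adjusted p = 0.0211). The histone chaperone gene Nap1l1 had 9.14, 9.54 and 9.79 against 10.21, 10.52 and 10.77 (-1.01, adjusted p = 0.0223). Lancl1, whose protein binds glutathione, had 10.48, 10.61 and 10.50 against 11.51, 11.44 and 11.20 (-0.85, adjusted p = 0.0211). These 3 genes fell, and of the 6 only Ctnna1 kept its call in every fit with 1 array left out.

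The other 5 kept the direction of their change where the call was lost. Mapkap1 was lost without trisomic replicate 2 or 3 or euploid replicate 1 or 3 (changes of 0.81, 0.81, 0.92 and 0.67, adjusted p = 0.128, 0.146, 0.0852 and 0.179). Prpsap1 passed only without euploid replicate 2, with changes of 0.52 to 0.57 and adjusted p values of 0.0894 to 0.131 in the other 5 fits. Snrpe was lost without trisomic replicate 1 or 2 or euploid replicate 3 (changes of -0.85, -0.78 and -0.81, adjusted p = 0.0538, 0.0616 and 0.0583). Nap1l1 was lost without trisomic replicate 1 or euploid replicate 2 or 3 (changes of -0.83, -1.0 and -0.87, adjusted p = 0.1, 0.0501 and 0.0835). Lancl1 was lost without trisomic replicate 1 or 3 or euploid replicate 1 or 2 (changes of -0.83, -0.84, -0.79 and -0.82, adjusted p = 0.0675, 0.0544, 0.0695 and 0.0533).

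Of the 68 called genes, 21 (30.9%) had a mean under 4 in 1 of the groups and so passed the filter on low values through the group where they were high, against 1.75% of all genes tested, and these include 13 of the 30 named genes. Not all of these 13 are marked as such above. The spread behind the calls was not the same in all cell types. Over the 68 genes the median SD within groups was 0.380 on the 6 spermatid arrays and 0.281 over all 22 arrays, and in 55 of them (80.9%) the spermatid SD was the larger, against 41.3% of all genes tested. Of the 68, 14 (20.6%) lay below 3 in all 6 groups of the other cell types, against 1.68% of all genes tested, and such values hardly vary. All 68 had an unadjusted p under 0.05 on the 6 arrays alone, against 7.73% of all genes tested. In 63 the groups did not overlap, while of all genes tested 7.45% lay apart upward and 5.57% downward. Both counts come from the arrays that made the calls, so they are not separate support. In a fit of the 16 germ cell arrays, chosen after these values were seen, 28 of the 68 were called. Of the named genes, 18 of 30 were among these, with Ttc22, Mas1, Trpc1, 4930519F16Rik, Aox4 and Kcnip2 at adjusted p values of at most 0.0024. The median level of the called genes was 5.81, against 8.99 over all genes tested.

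The trisomic segment was set at the centromeric 30 Mb of chromosome 17 (tested genes Scaf8 through Cmtr1), since the breakpoint is not in the labels. Its genes lay higher in trisomic spermatids almost throughout. Of 148 tested genes 133 (89.9%) had a change above 0, against 52.7% of all genes tested, and the median change was 0.36 with quartiles of 0.15 and 0.53. In 64 (43.2%) every trisomic array lay above every euploid array, against 7.45% of all genes, and in 1 (0.676%) every one lay below. A change of at least 1.5-fold, the ratio of 3 copies to 2, was reached by 34 genes (23%), against 3.38% of all genes. Past the threshold were 3 genes (2.03%), all higher, against 0.29% of all genes tested. This count was 1 without euploid replicate 1, and 5 without trisomic replicate 1 or euploid replicate 3. Taken per array against the euploid mean, and less the same median over the other autosomes, the segment lay at 0.26, 0.35 and 0.41 on the trisomic arrays and at 0.0013, 0.02 and -0.03 on the euploid arrays.

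The median change was above 0 along the whole segment and at every level. Ordered from the centromere in 4 groups of 37 genes, the medians were 0.36, 0.43, 0.36 and 0.29. Among the 26 segment genes with a mean of 4 to 6 the median was 0.21 and 19 lay above 0. Their arrays were apart upward in 2 (7.69%), near the 6.47% of all genes tested at that level. The 28 genes from 6 to 8 had a median of 0.27 and 25 above 0. Their arrays were apart upward in 21.4%, against 7.03% of all genes tested at that level. The 43 genes from 8 to 10, which include all 3 called genes, had a median of 0.41 and 38 above 0. Their arrays were apart upward in 46.5%, against 8.21% of all genes tested at that level. Among the 26 genes between 10 and 12 and the 25 above 12 all lay above 0, with medians of 0.38 and 0.35. Their arrays were apart upward in 61.5% and 80%, against 7.75% and 7.56% of all genes tested at these levels. A change of 1.5-fold was reached by 32.6% of the genes from 8 to 10, against 8% of those above 12. Over all genes tested at these levels it was reached by 2.05% and 0.214%. Just past the segment the genes from 30 to 35 Mb had a median of -0.03 (63 genes), and those beyond 45 Mb a median of 0.01 (165 genes). One gene just past the limit, 1700097N02Rik, rose by 1.08 (adjusted p = 0.0382), with 11.87, 12.18 and 12.23 in trisomic and 10.84, 11.11 and 11.10 in euploid spermatids, and was chosen after its values were seen. It did not pass with any 1 of the 6 arrays left out (adjusted p between 0.0506 and 0.111).

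**Figure D3:**
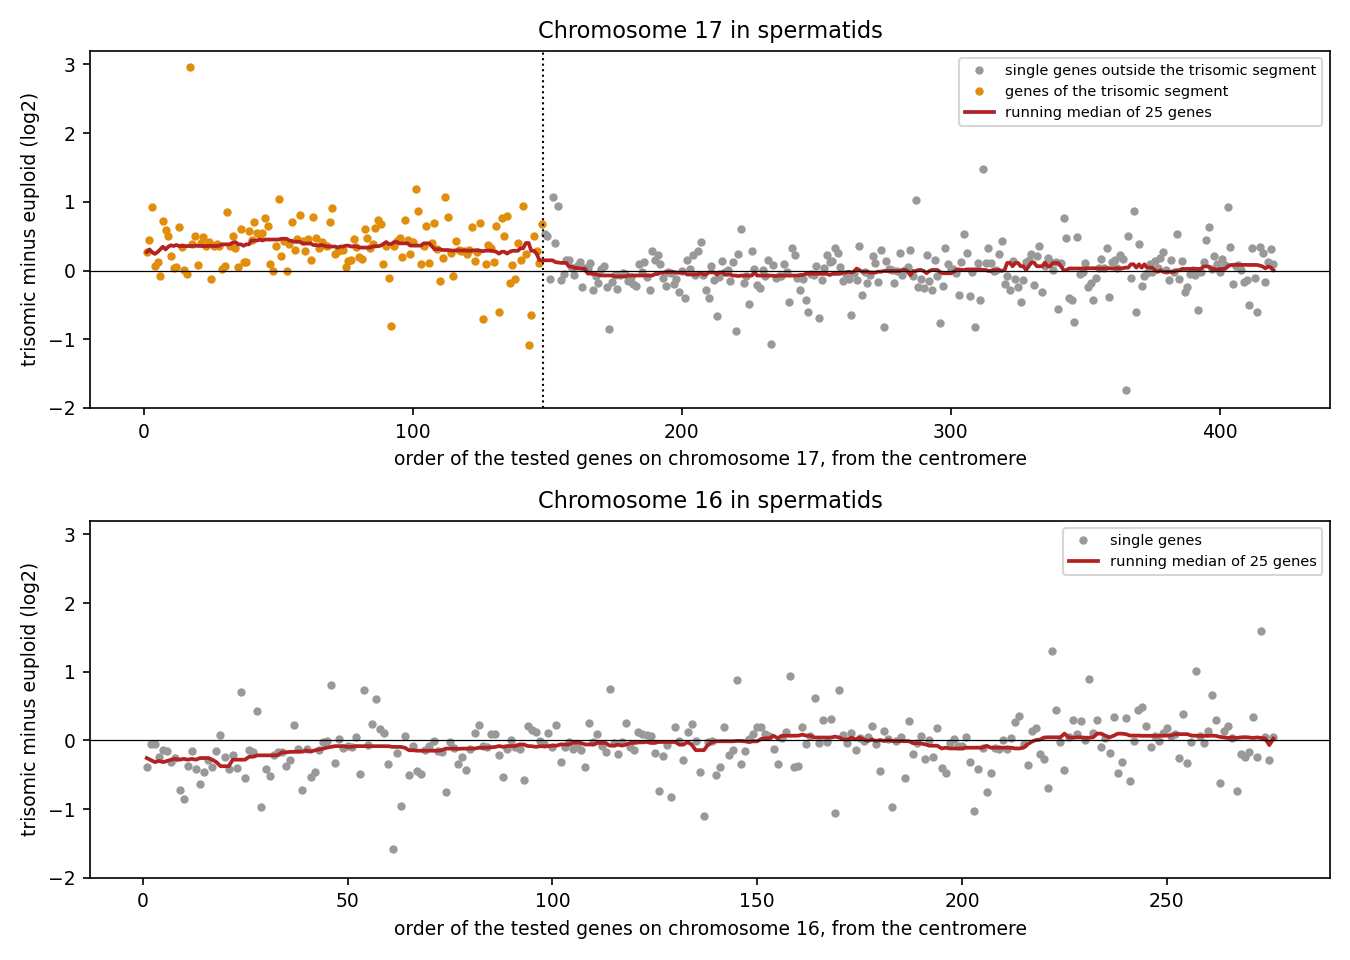
Change in spermatids (trisomic minus euploid, log2) of each tested gene in its order from the centromere on chromosome 17 (upper panel) and chromosome 16 (lower panel). Orange dots are the 148 genes of the trisomic segment, whose end is the dotted line, grey dots other genes, and the red line is a running median of 25 genes. The line stays above 0 up to the dotted line on chromosome 17, and lies below 0 at the start of chromosome 16.

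Mas1 stood apart from the rest of the segment. It encodes a receptor for an angiotensin peptide and neighbours the imprinted gene Igf2r. Its levels were 9.83, 9.53 and 9.63 in trisomic against 6.96, 7.05 and 6.09 in euploid spermatids, a change of 2.96 (SE 0.28, adjusted p = 1.15e-05) that no other gene of the segment came near. Stk38, the kinase also called NDR1, had 9.94, 10.20 and 10.03 against 9.08, 9.49 and 9.22 (0.79, SE 0.15, adjusted p = 0.015). It did not pass without euploid replicate 1 (0.70, adjusted p = 0.0596). The zinc finger gene Zfp523 had 9.65, 9.99 and 9.70 against 8.99, 9.07 and 9.21 (0.69, SE 0.16, adjusted p = 0.0454). Its adjusted p lay between 0.0551 and 0.13 with any 1 of the 6 arrays left out.

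Within the segment 22 tested genes belonged to the lists of germ cell and cell biology used below. Of these, 21 had a change above 0, with a median of 0.36 and the arrays apart upward in 15. Over the whole segment 89.9% lay above 0, the median was also 0.36, and 43.2% had their arrays apart upward. Over all genes tested 52.7% lay above 0 and 7.45% had their arrays apart upward. Of these 22 only Mas1 passed the threshold, and the members given next were chosen after their values were seen. Meiob, a meiotic recombination factor, had 8.09, 8.51 and 7.80 in trisomic and 7.34, 6.85 and 7.50 in euploid spermatids (0.91, adjusted p = 0.0962). Psmb1, a catalytic-core subunit of the proteasome, had 9.21, 9.60 and 9.83 against 8.64, 9.06 and 8.38 (0.85, adjusted p = 0.0617). Ndufb10, of respiratory complex I, had 12.32, 12.29 and 12.61 against 11.48, 11.81 and 11.82 (0.71, adjusted p = 0.0795). In these 3 genes the groups did not overlap. Sod2, the superoxide dismutase of mitochondria, had a change of 0.41, the sperm protease gene Prss21 one of 0.39, the flagellar gene Tekt4 one of 0.39, Ift140, of intraflagellar transport, one of 0.35, and the t complex gene Tcp11 one of 0.27. Tcp1, a subunit of the chaperonin that folds tubulin and actin, was near the upper end of the scale at 16.29 in trisomic and 16.21 in euploid spermatids, with a change of 0.08. The one member below 0 was Fgd2 (-1.08), whose arrays overlapped at 2.61, 4.78 and 5.12 against 5.52, 5.67 and 4.55.

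Chromosome 16, which took part in the translocation, leaned the other way. Of 276 tested genes 105 (38%) had a change above 0, against 52.7% of all genes tested, and the median was -0.07. Every trisomic array lay below every euploid array in 29 genes (10.5%, against 5.57% of all genes), and above in 11 (3.99%, against 7.45%). From the centromere outward, in 4 groups of 69 genes, the medians were -0.18, -0.08, -0.02 and 0.04. In the group nearest the centromere 13 of 69 genes lay above 0 and 14 (20.3%) had their arrays apart downward. That group lay at -0.20, -0.28 and -0.15 on the trisomic arrays and 0.03, -0.04 and 0.01 on the euploid arrays, relative to the other autosomes. Its median change was -0.28 without trisomic replicate 3, and between -0.27 and -0.20 without any other array.

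Past the threshold on chromosome 16 were 2 lower genes (0.725%, against 0.531% of all genes tested) and 1 higher gene (0.362%, against 0.29%). Both shares lay near those of all genes tested. Cep20, a protein of the centrosome and of cilium formation, had 8.26, 8.50 and 9.26 in trisomic and 10.32, 10.35 and 10.09 in euploid spermatids (-1.58, SE 0.24, adjusted p = 0.00262), and passed whichever array was left out. Hgd, an enzyme of tyrosine breakdown, had 5.49, 4.94 and 5.34 against 6.75, 6.27 and 5.89 (-1.05, adjusted p = 0.0223). It was lost without trisomic replicate 2 (adjusted p = 0.089) or euploid replicate 1 (adjusted p = 0.0869). Tnk2, a tyrosine kinase, had 7.19, 7.27 and 7.98 against 6.61, 6.57 and 6.62 (0.88, adjusted p = 0.0478). It was lost without trisomic replicate 3 (0.63, adjusted p = 0.166) and without euploid replicate 1, 2 or 3 (adjusted p = 0.0894, 0.108 and 0.0906).

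On the X chromosome, much of which is silenced in meiosis and partly active again in spermatids, 178 genes were tested. Their median change was 0.02, and 2 were called higher (1.12%, against 0.29% of all genes tested) and 0 lower (against 0.531%). Chromosome 1 held 9 of the 44 genes called lower among its 478 tested genes (1.88%, against 0.531% of all genes), and 0 called higher, with a median change of -0.00077. The 9 include Aox4, Mroh3 and Trpm8. No other chromosome had over 4 genes called in 1 direction.

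The programmes that make a sperm cell were described by lists, of which no member passed the threshold in any list except Mas1 in the t complex list. That list lies largely in the segment, with a median change of 0.36 over 9 genes and 8 above 0. Of the 15 elongating spermatid markers all had a change below 0, with a median of -0.28, against 0.01 over all genes tested. In 1 of the 15 the trisomic arrays lay below the euploid arrays, against 5.57% of all genes tested. Per array their median level was 14.22, 13.80 and 14.35 in trisomic and 14.45, 14.16 and 14.59 in euploid spermatids, so the groups overlapped and replicate 2 was the lowest of each. That 1 member was Akap4, the main scaffold of the sperm tail's fibrous sheath, with 15.27, 14.86 and 15.28 in trisomic and 15.55, 15.41 and 15.70 in euploid spermatids (-0.41, adjusted p = 0.801). The protamine gene Prm1 had 15.99, 15.81 and 16.16 against 16, 16.15 and 16.25 (-0.14), and the transition protein gene Tnp1 15.44, 15.18 and 15.99 against 15.70, 15.89 and 15.85 (-0.27). Neither passed, and both are near the upper end of the scale. Round spermatid markers had a median change of -0.04 over 14 genes, and pachytene spermatocyte markers one of 0.07 over 11. For chromatin packaging of the sperm head the median was -0.13 over 21 genes, from -0.70 in the histone gene H2bl1 to 0.20 in H1f6.

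Genes of the acrosome and of sperm-egg interaction had a median change of -0.03 over 31 genes, with 14 above 0. Adam3, needed for sperm to reach and bind the egg, was at 15.49, 15.57 and 15.41 against 15.36, 15.39 and 15.50, and Spaca1, of the acrosomal membrane, at 15.49, 15.35 and 15.16 against 15.34, 15.27 and 15.59. Flagellum and motility genes had a median of 0.01 over 35 genes, manchette and intraflagellar transport genes one of -0.03 over 27. The flagellar gene Ropn1l averaged 16.29 in trisomic and 16.27 in euploid spermatids, and Meig1, of the manchette, 16.05 and 15.98. These levels differed by less than the spread of the arrays. Sperm glycolysis genes had a median of -0.06 over 13 genes, with Ldhc and Pgk2 at changes of -0.02 and -0.05. The 6 testis-specific serine kinases had a median of -0.05, with Tssk2 at -0.10 and Tssk1 at 0.01.

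Regulators of the haploid programme gave similar values. Transcription factors of meiotic and haploid genes had a median of -0.03 over 20 genes, with Tcfl5 at -0.04 and Spz1 at -0.18. For mRNA storage and translation control the median was 0.07 over 21 genes, with the RNA-binding Ybx3, which holds stored messages, at 0.25 and the poly(A)-binding Pabpc2 at 0.06. The ubiquitin ligase list had a median of -0.03 over 19 genes, with Klhl10 at -0.03 and Rnf151, in the segment, at 0.36. In the piRNA pathway, which guards germ cells against transposons, the median was -0.03 over 21 genes. Its members included Tdrd5 at 6.07, 6.30 and 5.81 in trisomic and 6.75, 7.07 and 8.27 in euploid spermatids (-1.30, adjusted p = 0.0795). Dnmt3l, a cofactor of germ cell DNA methylation, had 8.09, 8.25 and 7.73 against 9.47, 8.94 and 9.07 (-1.14, adjusted p = 0.155). The groups of both genes lay apart and neither passed, and Dnmt3l was chosen after its values were seen. Mael, the most abundant member, was at 16.04, 16.04 and 16.06 against 15.98, 15.89 and 15.93.

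**Figure D4:**
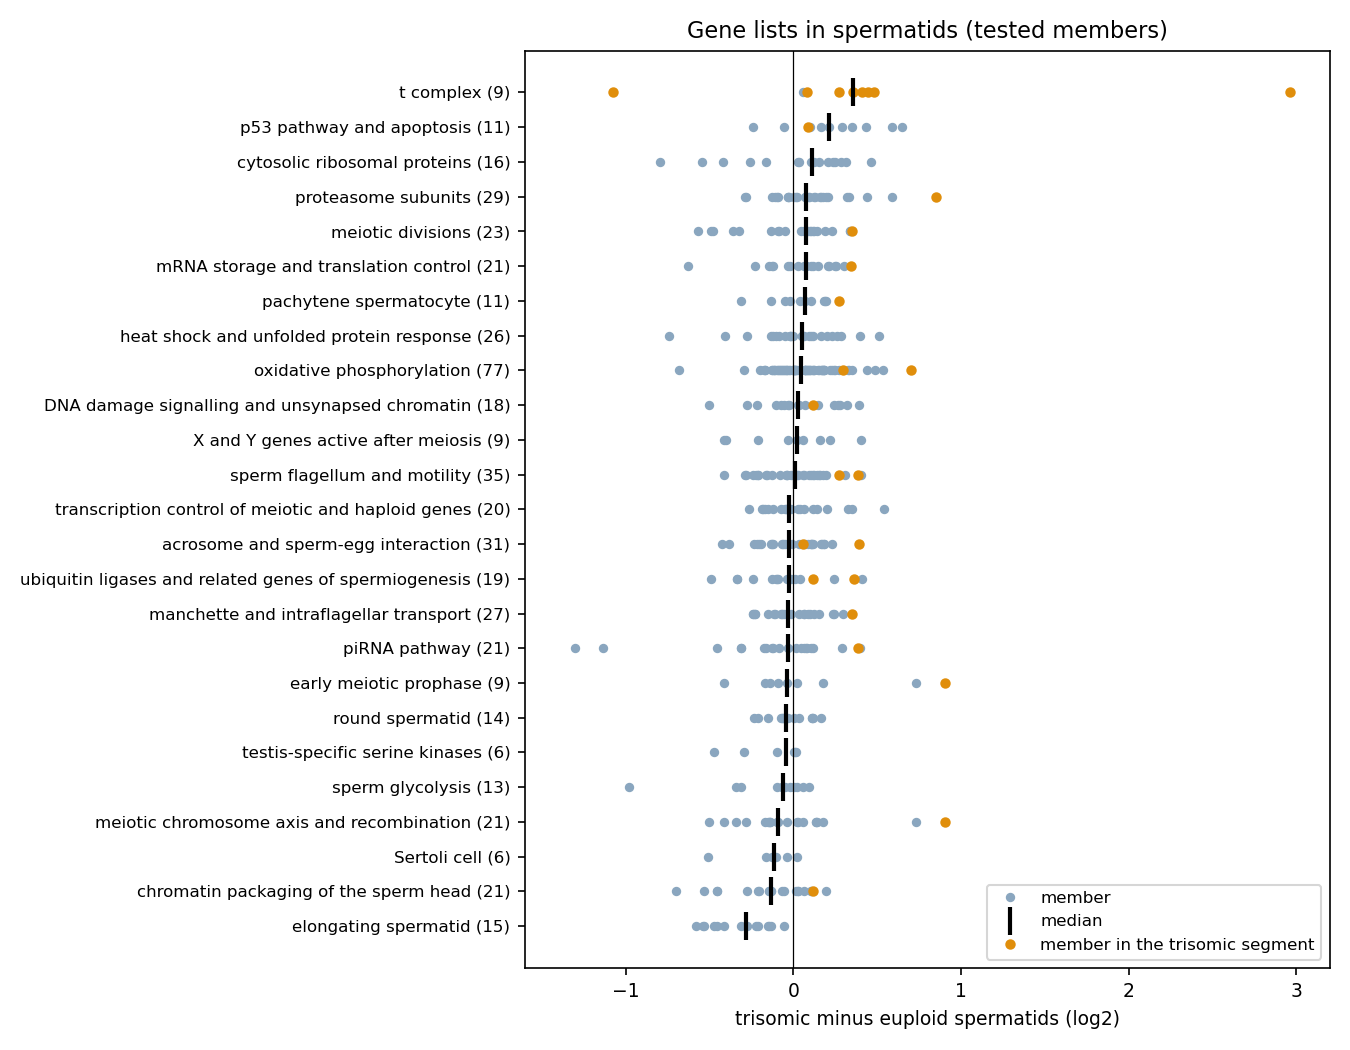
Change in spermatids (trisomic minus euploid, log2) of the tested members of each list with at least 6 of them, the number of which stands in brackets. Blue dots are members, orange dots members in the trisomic segment, and black bars the list medians. The elongating spermatid markers all lie below 0 (median -0.28), the t complex list has the highest median, and most other medians lie between -0.1 and 0.1.

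In the lists of stress and housekeeping no gene passed the threshold either. Proteasome subunits had a median of 0.08 over 29 genes, with 3 higher and 0 lower at an unadjusted p under 0.05, against 4.18% and 4.52% of all genes tested. Their arrays were apart upward in 6 and downward in 2, against 7.45% and 5.57% of all genes tested. The most abundant members were Psmc2 at -0.03 and Psma6 at -0.11. Heat shock and unfolded protein response genes had a median of 0.05 over 26 genes. The endoplasmic reticulum chaperone gene Hspa5 among them had 14.56, 14.70 and 14.45 against 14.06, 14.43 and 14.02 (0.40, adjusted p = 0.382). In the p53 and apoptosis list 11 of 30 genes were tested, with a median of 0.21 and 9 above 0, and 13 members lay in the background range on all 6 arrays. Its most abundant genes were the p53 inhibitors Mdm2 at 0.29 and Mdm4 at 0.17, neither past the threshold. For DNA damage signalling and unsynapsed chromatin the median was 0.03 over 18 genes, with Rad17 at 0.03 and H2ax at 0.07. Meiotic axis and recombination genes had a median of -0.09 over 21 genes, and genes of the meiotic divisions one of 0.07 over 23. Oxidative phosphorylation genes had a median of 0.04 over 77 genes, cytosolic ribosomal proteins one of 0.11 over 16, and genes of the sex chromosomes active after meiosis one of 0.02 over 9.

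The changes of spermatids were set beside those of the other cell types, which came from other arrays. Over all genes tested in each, 0.965% were called in mid-late-pachytene spermatocytes (0.569% higher, 0.396% lower), 10.3% in pre-mid-pachytene spermatocytes (5.88% higher, 4.46% lower) and 9.55% in liver (5.77% higher, 3.78% lower). Of 43 genes called in spermatids and tested in mid-late-pachytene spermatocytes, 38 changed with the same sign there, and 9 (20.9% of 43, and 22.5% of the 40 called there) were called in both, all in the same direction. These were Ttc22, 1700097N02Rik, Runx1t1 and Npepl1 upward, and Bhmt, Pard6g, Ramp3, Bcr and 4921536K21Rik downward. In pre-mid-pachytene spermatocytes 3 of 30 were called in both (10% of 30, and 0.388% of the 773 called there), Mas1, 1700097N02Rik and Bhmt, and 16 of 30 had the same sign. In liver 3 of 30 were called in both (10% of 30, and 0.765% of the 392 called there), Stk38 and Il33 upward and Nap1l1 downward, with 16 of 30 of the same sign. The share of equal signs over all genes was not counted. Outside the segment, changes in spermatids correlated with those in mid-late-pachytene spermatocytes (Spearman rho = 0.40, 7510 genes tested in both). For pre-mid-pachytene spermatocytes and liver rho was 0.15 and 0.03. Equal signs with the mid-late stage are thus not particular to the called genes. Bhmt, a methyltransferase gene of the methionine cycle, had 4.21, 2.69 and 5.94 in trisomic and 7.51, 5.91 and 7.97 in euploid spermatids (-2.85, adjusted p = 0.0311), where the highest trisomic array lay just above the lowest euploid array. It was lost without trisomic replicate 1 or 2 or euploid replicate 1 or 3 (adjusted p = 0.0864, 0.0989, 0.0885 and 0.118).

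**Figure D5:**
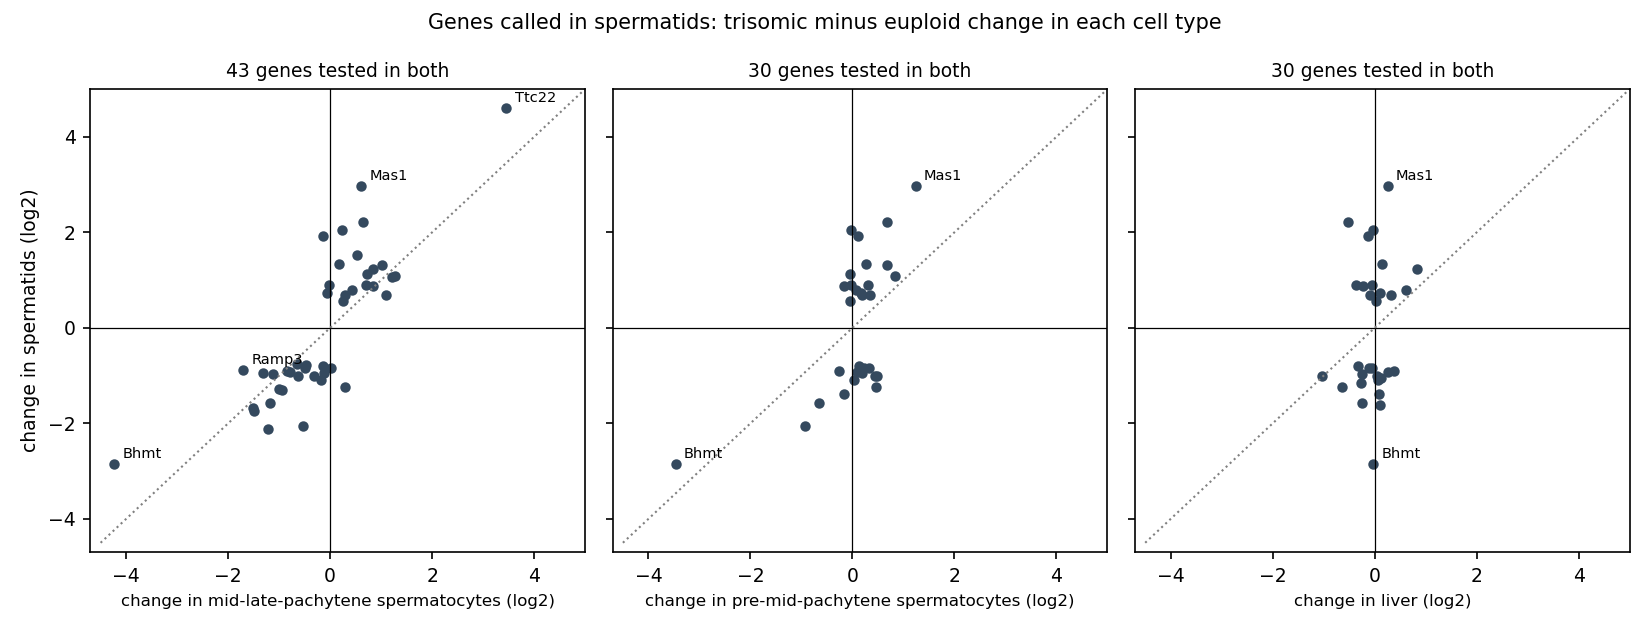
Change in spermatids (trisomic minus euploid, log2, vertical axis) against the change in another cell type (horizontal axis), for the genes called in spermatids and tested in both. Each dot is a gene and the dotted line marks equal changes. In mid-late-pachytene spermatocytes 38 of 43 genes lie in the quadrants of equal sign, and in pre-mid-pachytene spermatocytes and in liver 16 of 30. Over all genes outside the segment tested in both, not drawn, the changes correlated with Spearman rho of 0.40, 0.15 and 0.03.

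A difference of change between cell types was tested as an interaction. Against mid-late-pachytene spermatocytes 1 of 7647 genes passed (0.0131%), with 174 (2.28%) at an unadjusted p under 0.05. This was Ptp4a3, a phosphatase gene, whose change was -0.31 in spermatids and -1.99 in mid-late-pachytene spermatocytes. Against pre-mid-pachytene spermatocytes 18 of 7401 passed (0.243%), 8 (0.108%) with the higher and 10 (0.135%) with the lower change in spermatids. Both counts moved with single arrays. The first was 6 without euploid replicate 2, 1 without trisomic replicate 2, and 0 without any of the other 4 spermatid arrays. The second was 4, 5 and 0 without trisomic replicates 1, 2 and 3, and 10, 6 and 11 without euploid replicates 1, 2 and 3. Against liver 59 of 6006 passed (0.982%), 18 (0.3%) with the higher and 41 (0.683%) with the lower change in spermatids. In the segment the median change over the 110 genes tested in all 4 cell types was 0.36 in spermatids, 0.33 in mid-late-pachytene spermatocytes, 0.26 in pre-mid-pachytene spermatocytes and 0.65 in liver. Over all genes tested the median change was between -0.01 and 0.01 in spermatids, mid-late-pachytene spermatocytes and liver, and 0.11 in pre-mid-pachytene spermatocytes. Spermatids had the lower change of the pair in 88 of the 116 segment genes tested in spermatids and liver (75.9%, against 46.6% of all genes), with a median difference of -0.31. Single segment genes past the threshold of this difference were 3, Mas1 with the higher change in spermatids, and Smoc2 and Cuta, chosen after their values were seen, with the lower. Cuta lay near the filter limit, at means of 4.30 in trisomic and 4.37 in euploid spermatids. Against the spermatocytes no segment gene passed, with median differences of 0.07 for the mid-late and 0.12 for the pre-mid-pachytene stage (137 and 139 genes).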

How the data were processed

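Expression was measured on 1-colour arrays of amplified RNA. The values deposited by the authors are log2 intensities computed with GCRMA, per the submitters' processing notes, which give no version. The log2 scale was judged from the values, which ran from 0.95 to 16.64 on the spermatid arrays, with array medians of 4.37 to 4.48. Which arrays were normalized together is not given in the sources used here. No scanner files were used, so background correction and normalization were kept. Of 16539 probe sets, 15780 had 1 gene symbol in the platform annotation and were analysed, and the 759 without one were left out (341 of them with a mean of at least 4 in spermatids). Gene positions came from RefSeq's table for GRCm38.p6, in which 15752 genes were found and 28 were not.

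Group means were fitted to all 22 arrays with limma 3.58.1 in R 4.3.3, with a shared spread, for genes with a mean of at least 4 on the arrays compared. Changes are trisomic minus euploid, with Benjamini-Hochberg adjustment over all genes tested and a threshold of 0.05. Differences between cell types were interaction terms. The procedure was tested on simulated data, in which each gene had the same spread in all groups. Such data cannot show how the calls behave where the spread differs between cell types. The text names the genes with the largest changes among those past the threshold whose groups do not overlap, which were 12 in each direction outside the segment, up to 10 higher and 4 lower in it, and up to 4 lower and 2 higher on chromosome 16. It also names the 2 most abundant members of a list in which none passed, and the 3 largest differences of change in each direction. The members, lists and rules were chosen with earlier results of these data known. Alternatives changed the filter, the normalization, the arrays in the fit, the segment end and limma's settings, and left out each spermatid array.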

Additional observations from a re-analysis of the deposited data

Results flagged for a closer look

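Each value here is the change in spermatids minus the change in another cell type (log2, trisomic minus euploid in both), tested as an interaction with limma, and each was listed because that test passed an adjusted p of 0.05. Against liver the difference was positive for Sult5a1 (3.28, adjusted p = 0.00103), Csad (2.75, adjusted p = 0.0143), Card19 (2.74, adjusted p = 0.0212), Mas1 (2.71, adjusted p = 0.0026) and Mob2 (2.08, adjusted p = 0.0445). Card19, Mas1 and Mob2 rose in spermatids, with changes of 2.22, 2.96 and 2.05 there and of -0.52, 0.25 and -0.03 in liver. Card19 and Mob2 each had 1 euploid spermatid array below 3, and the size of both differences depends on that floor. The sulfotransferase gene Sult5a1 and Csad, an enzyme gene of taurine synthesis, had changes of 0.27 and 0.05 in spermatids and of -3.01 and -2.69 in liver, so their difference lay in liver. The same holds for the endoplasmic reticulum protein gene Creld2 (1.30, adjusted p = 0.00617) and the synaptonemal complex gene Sycp3 (0.99, adjusted p = 0.0252), at 0.06 and -0.04 in spermatids.

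The difference from liver was negative for Cdc20, an activator of the anaphase-promoting complex (-4.34, adjusted p = 0.00576), Hamp2, a hepcidin gene (-3.57, adjusted p = 0.0151), and Syce2, of the synaptonemal complex (-3.44, adjusted p = 0.0153). Their changes were 0.07, -0.27 and -0.34 in spermatids and 4.41, 3.31 and 3.10 in liver. Hamp2 lay near the filter limit in spermatids, at means of 3.96 in trisomic and 4.23 in euploid cells.

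Against mid-late-pachytene spermatocytes the 1 gene was Ptp4a3 (1.69, adjusted p = 0.0242). Against pre-mid-pachytene spermatocytes the named genes among 18 were Lrrc72 (2.54, adjusted p = 0.0238), Dusp21 (2.40, adjusted p = 0.0422), 1700007K13Rik (2.10, adjusted p = 0.0422), Ccdc130 (-1.84, adjusted p = 0.0188), Stambp (-2.64, adjusted p = 0.0422) and Tdrd5 (-2.76, adjusted p = 0.0238). In spermatids the changes of the first 5 lay between -0.58 and 0.12, and none passed the threshold there. Tdrd5 had changes of -1.30 in spermatids and 1.46 at the pre-mid-pachytene stage. The count against liver was 59.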

How the results depend on the processing

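The 68 changed genes became 110 with no filter, 22 and 11 with a minimum mean of 6 and 8, 1 on the 6 spermatid arrays alone, and, in alternatives chosen after seeing the data, 31 on the 16 germ cell arrays and 17 among genes at or above 3 in all 8 groups; leaving out 1 array gave 56 to 89. The cause was not tested, beyond the fewer genes or arrays in these fits. The 3 segment genes became 6 with no filter, 0 on the 6 arrays alone, 1 on the germ cell arrays and 1 with the segment end at 25 Mb, and 1 to 5 with 1 array left out. The segment median of 0.36 was 0.13 with no filter, 0.25 with the end at 35 Mb, and 0.31 to 0.40 with 1 array left out. The median of -0.18 of the 69 chromosome 16 genes nearest the centromere was -0.24 and -0.22 with a minimum mean of 6 and 8, -0.16 with arrays centred, and -0.28 to -0.20 with 1 array left out.

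The 59 differences from liver became 340 with no filter, 36 and 13 with a minimum mean of 6 and 8, 30 on the arrays of both cell types alone, and 42 to 54 with 1 array left out; with arrays centred, 32 were higher and 30 lower, against 18 and 41. The 18 from pre-mid-pachytene spermatocytes became 71 with no filter, 3 and 0 with the higher minimum means, 58 with quantile normalization (38 higher and 20 lower, against 8 and 10), 32 with arrays centred, 3 on the arrays of both cell types, 1 on the germ cell arrays, 2 among genes at or above 3, and 0 to 11 with 1 array left out. The 1 from mid-late-pachytene spermatocytes became 37 with no filter and 0 with a minimum mean of 6 or 8, quantile normalization, limma with trend and robust, the arrays of both cell types or the germ cell arrays, and 0 to 6 with 1 array left out. Trisomic and euploid arrays of the same number deviated together for replicate 2 and not for 1 and 3 (r = 0.36, -0.004 and -0.09), so the numbers were not taken as pairs. With the replicate number as a block 73 genes were called, 47 of them among the 68, 2 in the segment, 62 against liver, and 0 against each spermatocyte stage. No named gene changed direction past the threshold in these alternatives. Of the 30 named called genes 27 remained with no filter, 27 with quantile normalization, 30 with arrays centred and 1 on the 6 arrays alone. Tdrd5 passed without euploid replicate 1 (-1.61, adjusted p = 0.0308).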
